A study of Mus musculus with 13 samples.

Results

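The miR-23a and miR-23b clusters are a pair of paralogous loci, each of which encodes one member of the miR-23, miR-27 and miR-24 families in a row. They were taken here by name, as the hairpins mmu-mir-23a, mmu-mir-27a and mmu-mir-24-2 (the a cluster) and mmu-mir-23b, mmu-mir-27b and mmu-mir-24-1 (the b cluster), written without the species prefix from here on, which are 6 of the 1127 hairpins counted, and as every arm of these hairpins in the mature table, which are 11 of the 1297 mature sequences counted. All 6 hairpins and all 11 arms had enough counts to be tested. The counts come from small RNA-seq of thymic iNKT cells, T cells with an invariant TCR that recognizes lipids, from 6 WT and 7 *Tet2/3* DKO mice, one library per mouse. The WT mice are C57BL/6 mice. The *Tet2/3* DKO (DKO from here on) mice are Tet2-/-Tet3flx/flxcd4cre, so that *Tet2* is missing from every cell of the animal, while floxed *Tet3* is removed by a Cre that the *Cd4* promoter drives in T cells. No Cre is given for the WT mice, so the effects of Cre and of the deletions cannot be told apart. Both groups were 21 to 25 days old, and cells were sorted as live TCRβ+ tetramer+ thymocytes after CD24+ cells had been depleted.

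A miRNA gene is transcribed as a long primary transcript, from which DROSHA releases the hairpin (the precursor) and DICER then cuts a duplex of a 5p and a 3p arm. One arm, the guide, is usually kept by an ARGONAUTE protein and finds its target mRNAs mainly through its seed, bases 2 to 8, while the other arm, the minor arm, is mostly degraded. In T cells the miR-23, miR-27 and miR-24 families are known to restrain effector differentiation and cytokine production, miR-24 and miR-27 being known for limiting the type 2 response.

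The a cluster lies on chromosome 8 (GRCm38, chr8:84208518-84208921, plus strand, 404 bases) and overlaps no protein-coding gene of the GENCODE annotation, although the last 2 bases of mir-24-2 overlap an exon of the long noncoding RNA *Gm26532*. The b cluster lies on chromosome 13 (chr13:63300484-63301275, plus strand, 792 bases) inside the protein-coding gene *2010111I01Rik*. There, mir-23b is intronic, and mir-27b and mir-24-1 lie within exons of some of its annotated transcripts. The b cluster is also antisense to an intron of *Fancc*.

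The mature sequences show which counts can name a locus, so they are given here 5′ to 3′ from RefSeq (GRCm38.p6), with the seed in capitals. The guides are miR-23a-3p, miR-23b-3p, miR-27a-3p, miR-27b-3p and miR-24-3p, and the sequences of 4 of these 5 are as follows.
miR-23a-3p: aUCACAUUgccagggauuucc
miR-27a-3p: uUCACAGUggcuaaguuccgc
miR-27b-3p: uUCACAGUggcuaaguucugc
miR-24-3p: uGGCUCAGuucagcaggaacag
The paralogs miR-27a-3p and miR-27b-3p share their seed and differ by 1 substitution, C19U, counted from the 5′ end of miR-27a-3p. The sequence of miR-24-3p is encoded in both clusters, so its single row in the mature table cannot be divided between them.

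The minor arms differ more and are the sequences that name one locus.
miR-23a-5p: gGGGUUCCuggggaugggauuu
miR-23b-5p: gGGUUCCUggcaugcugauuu
miR-27a-5p: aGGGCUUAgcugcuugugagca
miR-27b-5p: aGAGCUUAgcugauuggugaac
miR-24-2-5p: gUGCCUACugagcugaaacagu
miR-24-1-5p: gUGCCUACugagcugauaucagu
The arms miR-27a-5p and miR-27b-5p differ by 8 substitutions, of which G3A lies in the seed, and miR-23a-5p and miR-23b-5p also have different seeds. The 2 minor arms of miR-24 share their seed and are identical over the first 16 bases.

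The hairpins of miR-24 show how far the precursor table can separate the loci, and are shown with their longest shared run in capitals.
mir-24-2: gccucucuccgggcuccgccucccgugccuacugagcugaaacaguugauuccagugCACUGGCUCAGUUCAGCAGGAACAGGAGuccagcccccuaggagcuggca
mir-24-1: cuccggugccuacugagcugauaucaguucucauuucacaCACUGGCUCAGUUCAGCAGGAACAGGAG
This run of 28 bases holds miR-24-3p whole. The longest run shared by mir-23a and mir-23b is 20 bases, again in capitals, and holds the seed of miR-23a-3p.
mir-23a: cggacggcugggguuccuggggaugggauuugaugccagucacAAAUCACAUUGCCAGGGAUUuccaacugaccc
mir-23b: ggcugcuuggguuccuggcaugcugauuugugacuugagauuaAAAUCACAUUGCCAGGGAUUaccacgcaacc
Between mir-27a and mir-27b the longest shared run is also 20 bases.

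Mature counts summed to 1110852 to 2582057 per WT library and 1837631 to 4361963 per DKO library, and hairpin counts to 469117 to 1110226 and 728653 to 1910526. Levels are CPM, counts rescaled to a common library size with TMM factors, and genotypes were compared by edgeR's quasi-likelihood test over all tested miRNAs of a table with Benjamini-Hochberg adjustment, at an adjusted p-value under 0.05. Hairpins expressed in the T lineage (mir-142a, mir-150, mir-181a-1, mir-181b-1 and mir-342) summed to 183427 to 209788 CPM in WT and to 143909 to 182355 CPM in DKO, without overlap. Their members went both ways, with log2 fold changes of -0.93 for mir-142a, -1.28 for mir-150, 0.88 for mir-181a-1 and 0.68 for mir-181b-1. For mir-342 (-0.27) the test was not passed. The sum rests on the TMM factors and was not computed without them. No miRNA identifies an iNKT cell, and *Tet2* and *Tet3* mRNA are not measured in small RNA-seq. Some hairpins of other cell types were lower in DKO, where 27.1% of all tested hairpins were lower. Of the 4 red cell hairpins 3 were tested and all 3 were lower, with a summed level between 803 and 2242 CPM in WT and between 175 and 657 CPM in DKO. Of these, mir-486a and mir-486b had nearly the same counts (2975 and 2971 over WT, 1943 each over DKO). They are not separate observations, and both enter the sum. Of the 7 hairpins of mesenchymal stroma 4 were tested and all 4 were lower (between 62.2 and 187 CPM in WT, between 9.71 and 37.9 CPM in DKO). Here mir-199a-1, mir-199a-2 and mir-199b had near-equal counts (129, 136 and 133 over WT, 66, 72 and 69 over DKO) and may not be separate observations. The myeloid mir-223 was at 20.1 to 310 CPM in WT, with WT replicate 3 highest, and at 0 to 19.2 CPM in DKO, while endothelial mir-126a (log2 fold change -0.13, adjusted p = 0.573) and the 5 tested epithelial hairpins did not pass the test. The liver hairpin mir-122 had too few counts to be tested (4.25 to 22.8 CPM in WT, 0 to 2.99 CPM in DKO). The part of these cells in the results below was not tested. In bulk samples, fewer cells of a type and less RNA per cell cannot be told apart.

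Guide arms of both clusters were among the abundant miRNAs of these cells, and the b cluster's guides fell by far more in DKO than those of the a cluster. The 11 arms together held 10.5% ± 0.460 (SD, n = 6) of the mature counts of WT libraries and 8.12% ± 0.960 (SD, n = 7) of those of DKO libraries. Of the 11 arms, 7 were lower in DKO, 0 were higher and 4 did not pass the test, where 27.4% of all tested mature miRNAs were lower and 28.2% were higher. With library size only, that is without TMM factors, 4 were lower and 2 were higher, and the median log2 fold change of all tested mature miRNAs was 0.24 in place of -0.01. The 4 that were lower under both scalings are the 2 arms of mir-23b and the 2 arms of mir-27b.

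For the b cluster, miR-23b-3p had a lowest, median and highest level of 16182, 17793 and 21039 CPM in WT and of 5662, 6221 and 7114 CPM in DKO. Every DKO mouse was thus below every WT mouse. The log2 fold change was -1.49 (edgeR, SE 0.0981, adjusted p = 7.55e-11), which is 2.81-fold lower. Its cluster partner miR-27b-3p ranged from 19715 to 26394 CPM in WT (median 23332) and from 7331 to 10373 CPM in DKO (median 9165). The genotypes did not overlap here either, and the log2 fold change was -1.37 (edgeR, SE 0.106, adjusted p = 7.75e-10), or 2.59-fold lower. Under the 4 scalings the log2 fold change stayed between -1.65 and -1.24 for miR-23b-3p and between -1.53 and -1.11 for miR-27b-3p.

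For the a cluster, miR-23a-3p was at 23159, 25687 and 28347 CPM (lowest, median and highest) in WT and at 17908, 19920 and 21723 CPM in DKO. The groups did not overlap, but the difference was smaller, with a log2 fold change of -0.38 (edgeR, SE 0.0908, adjusted p = 0.00134), or 1.30-fold lower, and with library size only it was -0.13 (adjusted p = 0.169) and did not pass the test. For miR-27a-3p the values were 17279, 21751 and 26522 CPM in WT and 15981, 19874 and 24253 CPM in DKO. These ranges overlap for most of their length, the log2 fold change was -0.11 (edgeR, SE 0.114, adjusted p = 0.411), and its sign turned with library size only (0.15). Leaving out one mouse gave values from -0.25 (without WT replicate 6, adjusted p = 0.0620, edgeR) to -0.09 (without DKO replicate 1).

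The guide that both clusters encode, miR-24-3p, had a fold change between those of miR-23a-3p and miR-27b-3p. Its levels were 22932, 25019 and 29230 CPM (lowest, median and highest) in WT and 17173, 18865 and 20690 CPM in DKO, again without overlap. The log2 fold change was -0.44 (edgeR, SE 0.0956, adjusted p = 0.000538), and with library size only it was -0.19 (adjusted p = 0.0617). In 5 of the 11 arms all DKO libraries lay below all WT libraries, against 14.5% of all tested mature miRNAs, and these 5 are the guides other than miR-27a-3p and the minor arm miR-27b-5p.

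**Figure D1:**
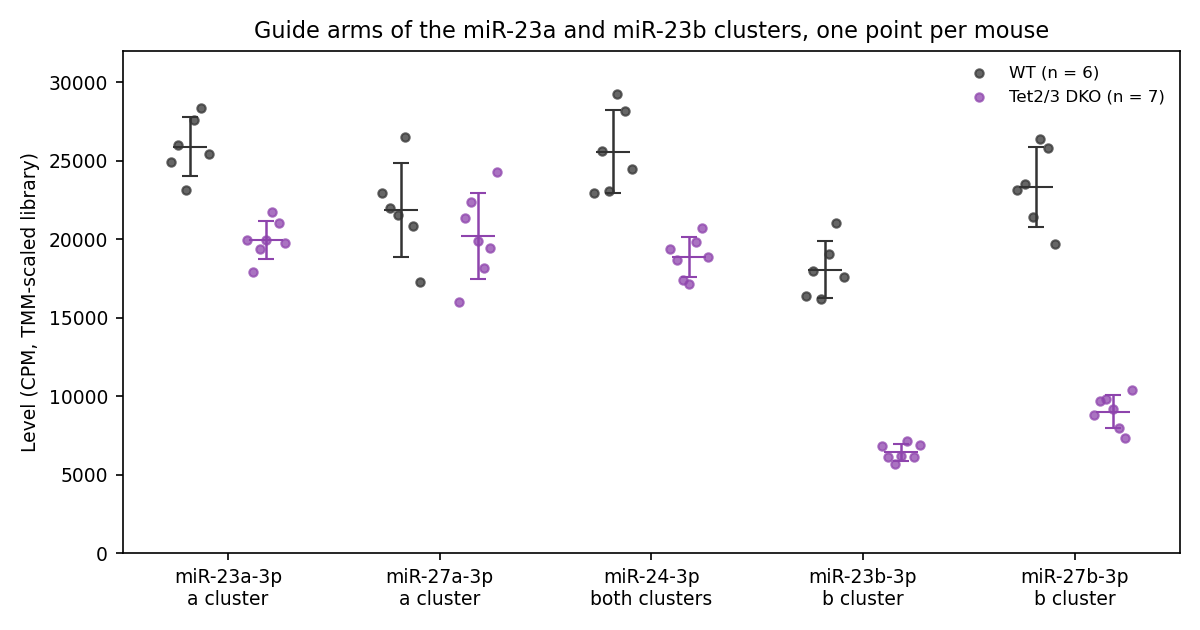
Level of the 5 guide arms in CPM (vertical axis, from 0) for each WT (n = 6) and DKO (n = 7) mouse, with the mean (horizontal mark) and SD (bars). The genotypes are far apart for miR-23b-3p and miR-27b-3p, closer for miR-23a-3p and miR-24-3p, and overlap for miR-27a-3p.

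Summed over paralogs, miR-23a-3p and miR-23b-3p came to 43936 CPM in WT (SD 3634, n = 6), against 26369 CPM (SD 1544, n = 7) in DKO. The sum of miR-27a-3p and miR-27b-3p was 45178 CPM in WT (SD 5192) and 29221 CPM in DKO (SD 3571). No test is attached to these sums.

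Minor arms, which come from one locus each, had far fewer counts than the guides. Together the 6 minor arms held 0.314% ± 0.0378 (SD, n = 6) of the counts of the 11 arms in WT and 0.476% ± 0.0420 (SD, n = 7) in DKO. The most abundant of them were miR-24-2-5p and miR-27a-5p of the a cluster and miR-27b-5p of the b cluster.

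In the b cluster miR-27b-5p fell as its guide did. It had between 74 and 196 counts per WT library and between 56 and 129 per DKO library, which is 66.9, 71.0 and 80.2 CPM (lowest, median and highest) in WT and 20.1, 25.1 and 33.0 CPM in DKO. The ranges were far apart, with a log2 fold change of -1.43 (edgeR, SE 0.178, adjusted p = 9.72e-07). For miR-23b-5p, with 2 to 25 counts in WT libraries and 0 to 20 in DKO libraries, the log2 fold change was -1.62 (edgeR, SE 0.519, adjusted p = 0.0111) and the genotypes overlapped. The remaining arm of the b cluster, miR-24-1-5p, had 6 to 21 counts in WT and 6 to 34 in DKO, and its log2 fold change of -0.61 (edgeR, SE 0.432, adjusted p = 0.241) did not pass the test at this depth.

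The a cluster's more abundant minor arms had positive fold changes. Counts of miR-24-2-5p ran from 243 to 597 in WT and from 631 to 1503 in DKO, or 187, 213 and 267 CPM against 224, 250 and 329 CPM (lowest, median and highest). The groups overlap, and the log2 fold change of 0.27 (SE 0.137) did not pass the test (adjusted p = 0.0992, edgeR). For miR-27a-5p the levels were 26.3, 42.1 and 52.0 CPM in WT and 30.5, 53.5 and 85.2 CPM in DKO, with a log2 fold change of 0.37 (edgeR, SE 0.229, adjusted p = 0.176). Leaving out one mouse gave 0.15 (without WT replicate 2) to 0.26 for miR-24-2-5p, in every fit below the 0.27 of all mice. For miR-27a-5p it gave 0.20 (without DKO replicate 6) to 0.38. With library size only, both passed the test, at 0.53 (adjusted p = 0.00714, edgeR) for miR-24-2-5p and at 0.58 (adjusted p = 0.0294, edgeR) for miR-27a-5p. Unlike these, miR-23a-5p was lower in DKO, with 8 to 43 counts in WT libraries and 6 to 44 in DKO libraries and a log2 fold change of -1.21 (edgeR, SE 0.439, adjusted p = 0.0236). The genotypes overlapped, and the call did not hold without WT replicate 4 (-1.11, adjusted p = 0.0507, edgeR) or with library size only (-0.94, adjusted p = 0.0860, edgeR).

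**Figure D2:**
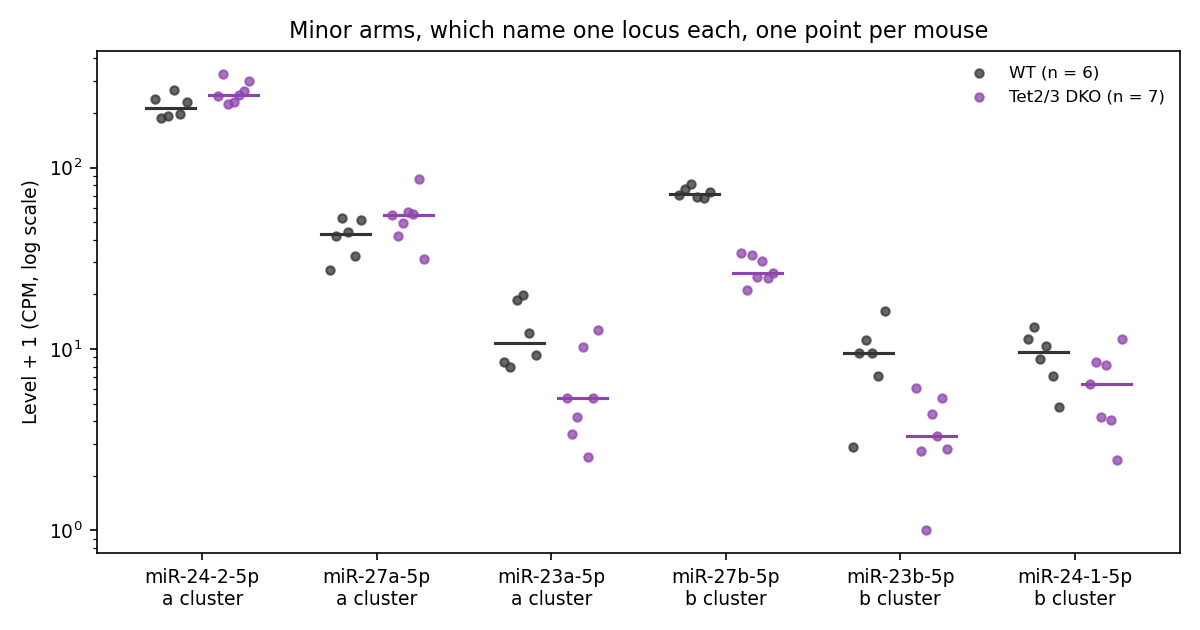
Level of the 6 minor arms, as CPM + 1 on a log axis, for each WT (n = 6) and DKO (n = 7) mouse, with the median as a horizontal line. The genotypes are apart for miR-27b-5p and overlap for the other arms, and miR-24-2-5p lies above all others.

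In the precursor table mir-23b and mir-27b again fell by more than mir-23a and mir-27a. Of the 6 hairpins 5 were lower in DKO, 0 were higher and 1 did not pass the test, where 27.1% of all tested hairpins were lower and 32.6% were higher. With library size only, 4 were lower and 1 was higher, and the median log2 fold change of all tested hairpins moved from 0.02 to 0.36. The genotypes did not overlap for the 5 lower hairpins, against 14% of all tested hairpins. The lower hairpins include mir-24-2 and mir-24-1 under both scalings. These had nearly the same counts and are not separate observations, although both enter each of these counts.

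The hairpin mir-23b was at 23891, 25963 and 30447 CPM (lowest, median and highest) in WT and at 7655, 8762 and 10502 CPM in DKO, a log2 fold change of -1.60 (edgeR, SE 0.102, adjusted p = 3.11e-10). Next to it, mir-27b was at 3419, 3853 and 4881 CPM in WT and at 1342, 1537 and 1597 CPM in DKO, a log2 fold change of -1.42 (edgeR, SE 0.0962, adjusted p = 5.82e-10). For both, the highest DKO library had less than the lowest WT library. These falls are close in size to those of their guide arms.

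Of the a cluster's hairpins, mir-23a was the one that did not pass the test. The level of mir-23a was 23330, 25159 and 27485 CPM in WT and 24765, 27105 and 28695 CPM in DKO, overlapping ranges with a log2 fold change of 0.09 (edgeR, SE 0.0801, adjusted p = 0.364). Its sign depended on scaling, from -0.16 with upper-quartile scaling to 0.43 with library size only (adjusted p = 4.04e-05, edgeR). By contrast mir-27a fell from 1323, 1609 and 1883 CPM in WT to 793, 1073 and 1201 CPM in DKO, a log2 fold change of -0.60 (edgeR, SE 0.109, adjusted p = 0.000142), or -0.26 with library size only (adjusted p = 0.0542, edgeR).

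The hairpins mir-24-2 and mir-24-1 had almost the same counts in every library. The log2 fold change was -0.69 for both (SE 0.0905, adjusted p = 4.59e-06 for each, edgeR), and mir-24-1 exceeded mir-24-2 by between 17 and 158 counts per library, out of 21865 to 71613. The annotation also places the hairpins mir-3074-1 and mir-3074-2 on the opposite strand of mir-24-1 and mir-24-2. Over the 4 rows of these overlapping hairpins the counts of a library differed by between 0.159% and 0.341%, so the precursor table does not separate the loci of miR-24 or the strands. In the mature table, miR-3074-5p shares a run of 20 of its 22 bases with the reverse complement of miR-24-3p and had between 18.6 and 33.0 counts per 100 counts of miR-24-3p. Whether these were reads of miR-24-3p was not tested.

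**Figure D3:**
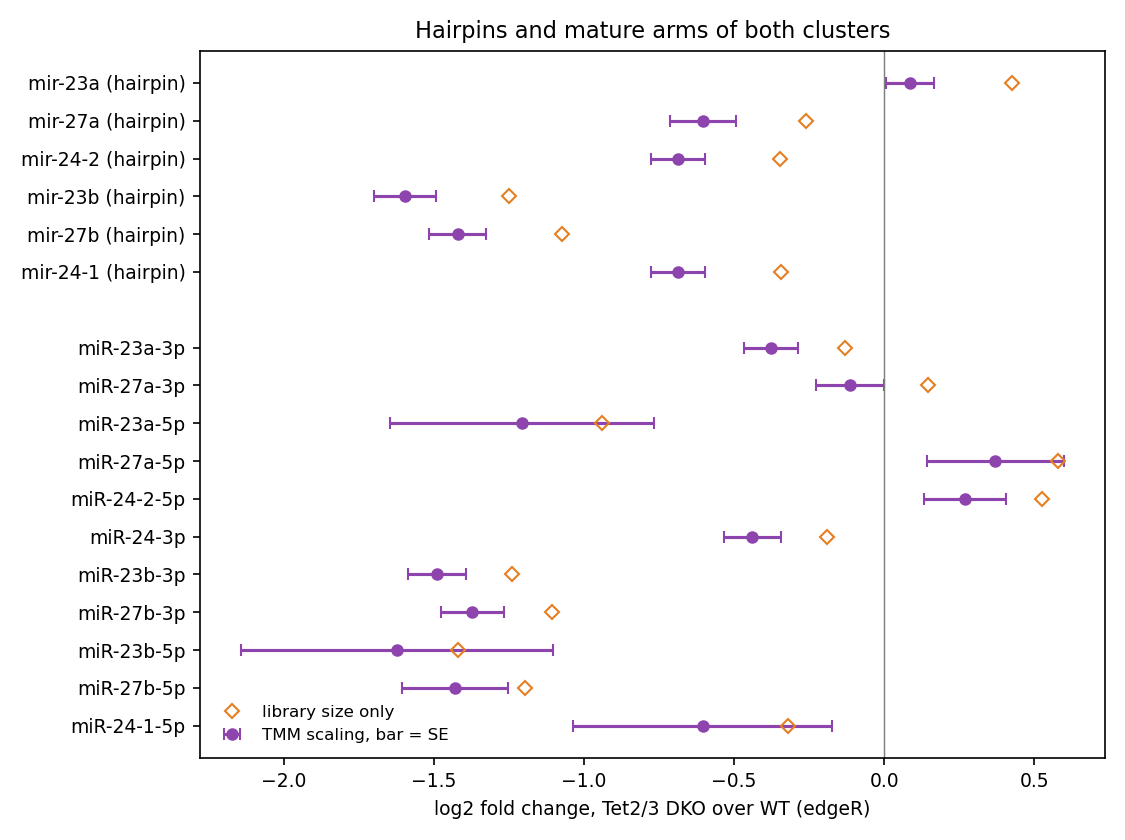
Log2 fold change of the 6 hairpins (upper part) and 11 mature arms (lower part), DKO over WT, with TMM scaling (circles, bars are SE) and with library size only (open diamonds). The b cluster's mir-23b and mir-27b and their arms lie below -1 under both scalings, while the a cluster's members lie between -0.69 and 0.58 apart from miR-23a-5p.

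Hairpin and guide counts related differently in the members. For each 100 counts of miR-23a-3p there were 41.3 ± 3.40 counts of the hairpin mir-23a in WT (SD, n = 6) and 58.5 ± 5.58 in DKO (SD, n = 7), and the lowest DKO library (49.7) was above the highest WT library (48.2). For mir-23b the values were 62.8 ± 6.01 and 59.7 ± 5.90, and for mir-27b 7.30 ± 1.03 and 7.31 ± 1.18, in each case with overlap. Values for mir-27a were 3.14 ± 0.505 in WT and 2.29 ± 0.376 in DKO. These shares were not tested, and whether a read was counted in both tables is not given in the sources used here.

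Ratios of paralogs within a library do not depend on how libraries are scaled, so the clusters were compared directly by 8 ratios of a over b, each tested by an exact two-sided permutation test over every way to choose 6 of 13 mice, with adjustment over the 8. In 6 of the 8 the ratio was higher in DKO past the threshold. For 5 of these 6 every DKO library was above every WT library.

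For the guides, miR-23a-3p had 1.35 to 1.52 counts for each count of miR-23b-3p in WT (median 1.44) and 2.85 to 3.43 in DKO (median 3.05). The mean log2 ratio rose by 1.11 (SE 0.0473, exact permutation p = 0.000583, adjusted p = 0.00117), a 2.16-fold change, and that p-value is the smallest that the design allows. As a share, miR-23a-3p made up 59.0% ± 0.942 of the counts of both in WT (SD, n = 6) and 75.6% ± 1.39 in DKO (SD, n = 7). The ratio of miR-27a-3p to miR-27b-3p went from 0.809 to 1.00 in WT (median 0.963) to 1.82 to 2.65 in DKO (median 2.27), a log2 difference of 1.26 (SE 0.0803, exact permutation p = 0.000583, adjusted p = 0.00117). Thus, by guide counts, the seed shared by the miR-27 guides lay about equally on both in WT (44.7% to 50.1% on miR-27a-3p). In DKO it lay mostly on miR-27a-3p (64.5% to 72.6%). These guides differ by 1 base, and how well reads were divided between them was not tested. By hairpin counts, mir-27a was the smaller part of the pair in both genotypes, at 28.6% ± 1.88 in WT and 41.2% ± 3.19 in DKO (SD).

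Among the locus-specific minor arms, miR-27a-5p to miR-27b-5p showed the same direction. The ratio was 0.383 to 0.694 in WT (median 0.591) and 1.21 to 3.58 in DKO (median 1.86), a log2 difference of 1.79 (SE 0.232, exact permutation p = 0.000583, adjusted p = 0.00117). The ratio of miR-24-2-5p to miR-24-1-5p was 14.8 to 55.6 in WT and 28.5 to 168 in DKO. These ranges overlap, and the log2 difference of 1.04 (SE 0.422, exact permutation p = 0.0297, adjusted p = 0.0396) was not past the threshold in 8 of the 13 tests that left out one mouse, namely without WT replicate 1, 2, 3, 4 or 5 or DKO replicate 3, 5 or 6 (adjusted p between 0.0556 and 0.101, exact permutation). In either genotype nearly all 5p counts of miR-24 came from the a cluster's arm, 93.8% to 98.4% in WT and 96.7% to 99.5% in DKO. For miR-23a-5p to miR-23b-5p, with few counts, the ratio was 0.551 to 3.40 in WT and 0.684 to 19.0 in DKO, and the log2 difference of 0.57 (SE 0.767, exact permutation p = 0.516, adjusted p = 0.516) was not detectable at this depth. Leaving out one mouse moved it between 0.046 (without DKO replicate 3) and 0.85 (without DKO replicate 5). Over the 6 minor arms the a cluster held 75.2% ± 2.98 of the counts in WT and 90.1% ± 1.86 in DKO, given with no test. Most a counts were of miR-24-2-5p (2311 over WT, 6923 over DKO) and most b counts of miR-27b-5p (765 and 693). These arms are not paralogs, so the share does not measure the output of the clusters.

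Hairpin ratios of miR-23 and miR-27 moved in the same direction as the guide ratios, though not by the same amounts. For mir-23a over mir-23b the ratio was 0.849 to 1.02 in WT (median 0.952) and 2.56 to 3.70 in DKO (median 3.12), a log2 difference of 1.69 (SE 0.0805, exact permutation p = 0.000583, adjusted p = 0.00117). For mir-27a over mir-27b it was 0.344 to 0.452 in WT (median 0.404) and 0.536 to 0.799 in DKO (median 0.709), a log2 difference of 0.81 (SE 0.0912, exact permutation p = 0.00117, adjusted p = 0.00186). The ratio of mir-24-2 to mir-24-1 lay between 0.997 and 0.999 in all 13 libraries, since these rows hold nearly equal counts.

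**Figure D4:**
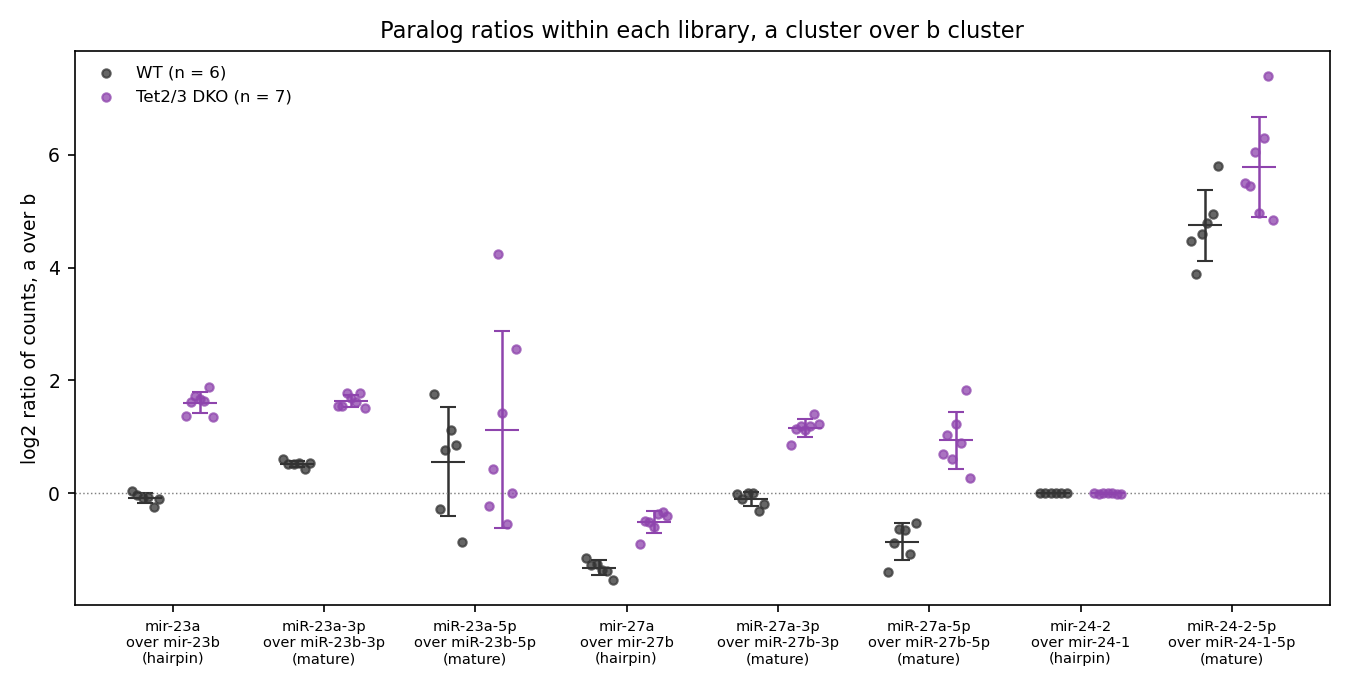
Log2 ratio of counts (with 0.5 added), a cluster over b cluster, in each WT (n = 6) and DKO (n = 7) library, with the mean and SD. The genotypes are apart for the hairpin and guide ratios of miR-23 and for all 3 ratios of miR-27, overlap for both other minor arm ratios, and coincide near 0 for the hairpins of miR-24.

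Arm use was compared by the ratio of the 3p to the 5p arm, with 5 ratios tested in the same way and adjusted over the 5. For the b cluster's mir-27b it was 266 to 387 in WT (median 321) and 265 to 478 in DKO (median 308), and the log2 difference was 0.07 (SE 0.155, exact permutation p = 0.693, adjusted p = 0.693). The ratio of miR-24-3p to the sum of its 5p arms was 92.3 to 138 in WT (median 110) and 55.5 to 78.4 in DKO (median 76.3). There the groups did not overlap, and the log2 ratio fell by 0.68 (SE 0.115, exact permutation p = 0.000583, adjusted p = 0.00291). Unlike the other ratios, it sets a guide of both clusters against 5p counts that came nearly all from the a cluster's arm. A change in arm use and a change in the share of each cluster therefore cannot be told apart in this ratio. The difference for mir-27a was -0.46 (SE 0.295, exact permutation p = 0.154, adjusted p = 0.257), and those of mir-23a (0.97, exact permutation p = 0.0659, adjusted p = 0.165) and mir-23b (0.42, exact permutation p = 0.641, adjusted p = 0.693) rest on few 5p counts. The ratio of mir-23a passed the threshold without DKO replicate 7 (1.21, exact permutation, adjusted p = 0.0487).

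Other miRNAs of the same libraries were compared by lists, beside all tested hairpins, of which 32.6% were higher and 27.1% were lower. In 14 hairpins of other paralogous clusters (mir-15 and mir-16, mir-29, mir-181), 6 were higher and 6 were lower, with a median log2 fold change of -0.19 against 0.02 over all tested hairpins. With library size only, 3 of the 14 were lower. Some of these rows had near-equal counts, such as mir-181a-1 and mir-181a-2 (155668 and 153149 over the WT libraries), and may not be separate observations. Between the paralogous loci of this list, the log2 fold changes were -0.19 for mir-15a and -0.18 for mir-15b, and -0.95 for mir-29a and -0.52 for mir-29c. Outside the list, and named after their values were seen, other paralogs lay much farther apart, with mmu-mir-99a at -3.09 and mmu-mir-99b at 1.51, and mmu-let-7c-1 at -2.52 and mmu-let-7e at 1.38. None of these gaps between paralogs was tested. Few counts were of mmu-mir-99a (175 over WT, 45 over DKO). Mean levels of mmu-let-7c-1 and mmu-let-7c-2 were close (11709 and 12799 CPM in WT, 2047 and 2067 CPM in DKO), and these may not be separate observations. The most abundant member was mir-181a-1, a miRNA known for tuning TCR signalling and iNKT cell development (0.88, adjusted p = 0.000838, edgeR). Of 18 hairpins known to regulate effector T cells, 14 were tested, 5 were higher and 3 were lower, with a median of 0.35, the most abundant being mir-92a-1 of the miR-17-92 cluster (-0.47, adjusted p = 0.00280, edgeR). Of the 5 T lineage hairpins 2 were higher and 2 were lower, and the most abundant was mir-142a (-0.93, adjusted p = 8.33e-06, edgeR). In the lists of other cell types the most abundant hairpins were mir-486a of red cells (-1.97, adjusted p = 0.000142), mir-199a-2 of stroma (-2.29, adjusted p = 0.000185) and mir-203 of epithelium (-0.17, adjusted p = 0.252), all by edgeR.

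Across the 13 libraries the hairpins most like the mean log2 level of the b cluster's hairpins were let-7b (Pearson's r = 0.991), let-7c-2 (0.987) and let-7c-1 (0.986), members of the let-7 family. With each genotype centred on its own mean, r was lower, at 0.682, 0.681 and 0.622. For the a cluster the most alike were mir-3074-1 and mir-3074-2 (0.982 for each), which hold the counts of the miR-24 hairpins, and mir-29a (0.967, centred 0.809). The mean of either cluster includes a hairpin of miR-24, whose counts do not separate the clusters, so these likenesses are not specific to a locus. Within the clusters, centred r was 0.570 between mir-23b and mir-27b and -0.144 between mir-23a and mir-27a. Across the clusters, leaving out the hairpins of miR-24, it ran from -0.143 (mir-27a and mir-23b) to 0.494 (mir-27a and mir-27b). These values describe 13 libraries that share depth and sorting between members, and they carry no p-value.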

How the data were processed

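Small RNA libraries of FACS sorted thymic iNKT cells (6 WT and 7 DKO mice, 1 library each) were processed by the authors with nf-core/smrnaseq at its defaults, and the values they deposited are raw counts per hairpin and per mature sequence. The labels name the build mm10. The aligner, the miRNA database release and the counting of reads with several matches or on the opposite strand are not given in the sources used here, and near-identical paralogs may therefore have exchanged reads. Molecular identifiers are not named in the sources, so reads may not be independent molecules. Mice of both sexes were used, and the sex of each is not given.

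From the deposited counts, rows were kept by filterByExpr (minimum count 10, minimum total 15), scaled by TMM and tested with edgeR 4.0.16 (robust quasi-likelihood, genotype only, all 13 libraries, R 4.3.3), with adjustment over each table. An SE was derived from the fold change and the F statistic. Paralog and arm ratios used counts plus 0.5 and exact permutation tests. Scripts were checked on simulated data. Sequences and positions come from RefSeq and GENCODE (GRCm38). Python 3.11.15, matplotlib 3.10.9, DESeq2 1.42.0 and limma 3.58.1 were also used, and 0 columns were left unused. Members, lists and tests were chosen with earlier results of these data known. Named are all members, the most abundant hairpin of each list, the 3 hairpins most like each cluster, and, after their values were seen, other paralogous hairpins. Alternatives were other scalings, filters, tests, a replicate block, identical rows taken once, a pseudocount of 1, and leaving out mice. Leaving out both shallowest libraries was added after the data were seen.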

Additional observations from a re-analysis of the deposited data

Results flagged for a closer look

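Member levels and ratios were checked in each genotype for a mouse far from the others, and 3 of 60 groups had one, with about 1 in 20 to be met by chance. In DKO, replicate 5 had the highest level of both hairpins that share the miR-24 counts, at 15.34 in log2(CPM + 1) for mir-24-2 and for mir-24-1, with the next library at 15.11 for each. DKO replicate 3 had the highest log2 ratio of miR-23b-3p to miR-23b-5p (14.96, next 11.74), since it had 0 counts of miR-23b-5p.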

How the results depend on the processing

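The falls of mir-23b, mir-27b, miR-23b-3p, miR-27b-3p, miR-27b-5p and miR-23b-5p kept their direction and their side of the threshold under every alternative that tested them, although a minimum of 10 counts in every library left 8 of the 11 arms, without the minor arms of few counts. The a cluster depended on scaling, since mir-23a was at -0.015 with RLE and -0.16 with upper-quartile scaling, and miR-27a-3p was at 0.15 with library size only. Leaving out one mouse gave 5 lower hairpins in all 13 fits and 6 to 7 lower arms, 5 to 6 paralog ratios past the threshold and 1 to 2 arm ratios. Over these fits the log2 difference was 0.77 to 1.25 for miR-24-2-5p over miR-24-1-5p, 0.72 to 1.21 for the arm ratio of mir-23a, -0.13 to 0.73 for that of mir-23b (-0.13 without DKO replicate 3) and -0.012 to 0.13 for that of mir-27b (-0.012 without DKO replicate 2), while the 5 paralog ratios without overlap stayed past the threshold. Equal replicate numbers in the 2 genotypes were not shown to mark pairs. Deviations of same-numbered libraries correlated at between -0.05 and 0.34, and 2 of 6 WT libraries in each table were closest to their own number. These were replicates 5 and 6, for hairpins and for mature sequences alike. Whether some of the equal numbers mark pairs was not tested. With the replicate block, 5 hairpins, 7 arms and 6 paralog ratios passed as before, and 0 arm ratios did (-0.64 for miR-24, adjusted p = 0.0781 by an exact sign permutation test, whose smallest p with 6 pairs is 0.0312). After adjustment over the 5 arm ratios, a ratio at this smallest p can pass only if most of the others also reach it. The lack of a pass under this setting therefore says little about the arm ratios. In the lists, the other paralogous clusters had 3 in place of 6 lower hairpins both with library size only and without the filter, the effector regulators had 2 in place of 3 lower ones under the same settings, and the liver list had 1 in place of 0 lower without the filter. The depth limits what can be said of miR-23a-5p, miR-23b-5p and miR-24-1-5p, with at most 44 counts in a library.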
